A study of Rattus norvegicus with 142 samples.

Results

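The rat hippocampus was examined 1 week (168 h) after a single episode of hypoxic seizures at post-natal day 10 (P10), by comparing 5 libraries of pups that had hypoxic seizures (HS) with 5 libraries of pups that had none (noHS). These 10 libraries are all those with this tissue and time and these treatment labels, out of 142 libraries in the whole series. The series profiled hippocampus and cortex of Long-Evans rat pups at 5 times, from 1 h to 168 h, under 3 treatments, on plate-format Affymetrix HT Rat Focus arrays. The HS pups breathed 5% O2 for 15 minutes at P10 and the noHS pups went through a normoxic sham event. Both groups were then given 4 intraperitoneal injections of vehicle over 48 h and were killed at P17, and each hippocampus library came from 1 pup. Another group, HS+NBQX, had the same hypoxia and was given NBQX in place of vehicle, and it holds 4 hippocampus libraries at 168 h. Controls therefore share the injections and the vehicle with HS, and had the sham event in place of hypoxia. They differ from HS in the hypoxia and the seizures together, so these cannot be told apart.

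Hypoxia in the immature brain lowers the threshold for seizures, and in this rodent model a brief hypoxic episode in the second post-natal week is followed by a lasting increase in seizure susceptibility. The hippocampus is among the structures in which early seizures alter glutamatergic transmission, and the week after P10 is a period of rapid synapse formation, dendritic growth and the onset of myelination there. NBQX blocks AMPA receptors, the ionotropic glutamate receptors that carry most fast excitatory transmission. In tissue pieces of this kind, a change in the number of cells of a type and a change in the RNA of each cell cannot be told apart.

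An array of this kind reads each transcript through probe sets, groups of short probes whose brightness is summarised as 1 intensity. No table used here pairs these probe sets with genes, so results are given by probe set identifier and by number of probe sets, no sequence is shown, and the gene lists of neuronal, glial and signalling pathways could not be counted. Only the manufacturer's control probe sets carry the name of their transcript.

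The 10 pups came from 2 litters, with 3 noHS and 2 HS pups in the first and 2 noHS and 3 HS pups in the second. Each litter's hippocampus libraries lay on a plate of its own. On both plates all HS libraries lay in column 6 and all noHS libraries in column 12, and the HS+NBQX libraries lay in column 3. Treatment and plate column therefore cannot be told apart at 168 h. The same holds in outline at the other times, where HS libraries lay in columns 4 to 6 and noHS libraries in columns 9 to 12. The HS pups had 10, 15, 13, 14 and 10 seizures. They weighed 19.2 ± 1.30 g at P10 (SD, n = 5), and the noHS pups 18.6 ± 1.14 g (SD, n = 5; exact two-sided permutation test, p = 0.619).

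The tissue label was checked with 331 probe sets that differed over 2-fold between hippocampus and cortex in the noHS libraries of 1 to 48 h. On the mean of these probe sets, scored as log2 distance from the midpoint towards hippocampus, the 10 libraries lay between 0.186 and 0.594, and the 15 cortex libraries at 168 h lay between -0.809 and -0.420. All 10 were therefore on the side of their label. Library medians ran from 63.8 to 75.8 intensity units over the 10 libraries, and no pair of libraries held identical values. Of 8 technical measures, the 3′ to 5′ ratio of the hexokinase control had the smallest p. Its log2 ratio was 1.66 ± 0.15 in HS and 2.03 ± 0.13 in noHS (SD, n = 5 each), with no overlap between the groups (exact permutation test, p = 0.00794, the smallest that 5 against 5 can give; 0.0635 after Benjamini-Hochberg adjustment over the 8). The ratios of GAPDH and beta-actin differed by 0.089 and 0.025 (exact permutation p = 0.159 and 0.786). The mean log2 level of the hybridization controls was 0.20 higher in HS, with -0.04 in the first litter and 0.42 in the second. The share of probe sets under 32 intensity units was 36.63% in HS and 37.95% in noHS. Both had an exact permutation p of 0.0635 (0.169 after Benjamini-Hochberg adjustment). The part of these technical differences in the results below was not tested.

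One week after hypoxic seizures, 694 of 24249 probe sets differed between HS and noHS hippocampus (2.86%), and most of them were higher in HS. Of these, 585 were higher in HS (2.41% of all probe sets) and 109 were lower (0.45%). A probe set was called where the Benjamini-Hochberg adjusted p of limma's moderated test, with litter as a block, was under 0.05. Most changes were modest: the median difference was 0.60 on the log2 scale (1.52-fold) over those that rose and -0.36 (1.29-fold) over those that fell, against 0.01 over all probe sets. A change of over 2-fold was fitted for 64 of the 585 and for 5 of the 109. Of these, 34 of the 64 and 4 of the 5 were under the 40th percentile of intensity. Over all probe sets 1033 differed by over 2-fold, so most differences of that size were not called, and 995 of the 1033 were under the 40th percentile of intensity.

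**Figure D1:**
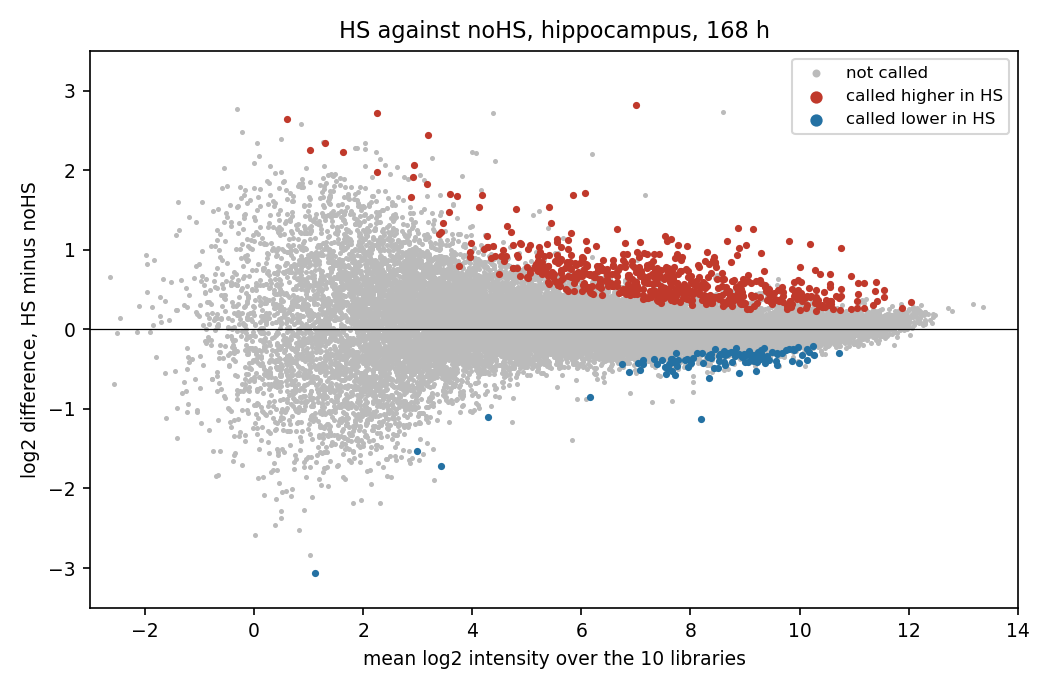
Log2 difference HS minus noHS (y axis) against mean log2 intensity over the 10 libraries (x axis) for each of the 24249 probe sets. Grey points were not called, red points (585) were called higher in HS and blue points (109) lower. The uncalled spread widens to the left, and the called rises outnumber the called falls.

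The split between rises and falls depended on which scaling was used. With each library shifted to a common median, 443 probe sets were higher and 292 lower, a shift that moved the median difference of all probe sets to -0.05. Quantile normalization gave 597 higher and 143 lower, and a pseudocount of 32 gave 615 higher and 114 lower. Calls were most frequent among bright probe sets. In quintile 1 of intensity, the dimmest, 0.268% were called, compared with 5.2% in quintile 4 and 4.27% in quintile 5. The fitted rise of the called probe sets was smaller where intensity was higher, with a median of 4.67-fold in quintile 1 and 1.33-fold in quintile 5. The median SE of all probe sets was 0.743 and 0.0897 there, so a dim probe set needed a larger fitted change to be called. This trend therefore says nothing about the size of the response at each intensity. Probe sets that fell were brighter (median intensity 435) than those that rose (176.5), and over all probe sets the median was 70.7. None of the 66 control probe sets was called, including those for GAPDH, beta-actin, hexokinase and 5S ribosomal RNA. Over all probe sets 2.86% were called, so no call among 66 lies near that share and says little about these transcripts. The 5′ hexokinase probe set differed by 0.32 ± 0.14 (SE; adjusted p = 0.28 by limma), and the 3′ one by -0.05 ± 0.09 (SE; adjusted p = 0.871 by limma).

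Libraries of the groups were fully separated for many of the called probe sets. All 5 HS libraries lay above all 5 noHS libraries for 326 of the 585 rises, and over all probe sets this was so for 639 (2.64%). All 5 HS libraries lay below all 5 noHS libraries for 51 of the 109 falls, and over all probe sets for 219 (0.903%). Calling on these same 10 libraries favours such separation, so it is no further evidence for the calls. The count of calls fell whichever of the 10 libraries was left out. The count was 436 without HS replicate 1 and 462 without noHS replicate 5, and between 477 and 671 without each of the other 8 in turn. How far a smaller group alone lowers the count was not tested. When each of the 10 libraries was left out in turn, 266 of the 585 rises and 23 of the 109 falls stayed called every time. Without noHS replicate 5 the number of falls was 42, and it was 65, 63 and 66 without HS replicates 1, 2 and 3.

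Probe sets are named here from those above the 40th percentile of intensity, with the same sign in both litters, and some dimmer probe sets had larger fitted changes. The largest rise was that of 1394160_AT. Its intensity was 55.2, 46.6, 70.1, 45.4 and 40.3 in noHS replicates 1 to 5, and 502, 460, 242, 250 and 256 in HS replicates 1 to 5. All HS libraries lay far above all noHS libraries, and the 2 HS pups of the first litter were brighter than the 3 of the second. The log2 difference was 2.82 ± 0.19 (SE; 7.04-fold; limma adjusted p = 3.4e-13), and it was 3.09 in the first litter and 2.54 in the second.

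The probe set 1385069_AT was 48.3, 28.4, 41.2, 40.9 and 31.1 in noHS replicates 1 to 5 and 130, 115, 117, 114 and 132 in HS replicates 1 to 5. The HS pups were closely alike (SD 0.10 on the log2 scale) and all lay above the noHS pups, which varied more (SD 0.32). The difference was 1.72 ± 0.26 (SE; 3.28-fold; limma adjusted p = 4.6e-05), with 1.67 in the first litter and 1.76 in the second.

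The 2 largest falls above the 40th percentile of intensity had adjusted p-values close to the threshold. The intensity of 1372923_AT was 367, 359, 376, 557 and 507 in noHS replicates 1 to 5 and 204, 182, 255, 443 and 82.7 in HS replicates 1 to 5. HS replicate 4 overlapped the noHS libraries, and HS replicate 5 was far below the other HS libraries. The difference was -1.13 ± 0.32 (SE; 2.19-fold lower; limma adjusted p = 0.0416), and the call was lost without any single library other than HS replicate 4. The same pup, HS replicate 5, also had the lowest value of this probe set in cortex, at 56.5, where the other 4 HS pups had 178 to 308 and the noHS pups 352 to 633.

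The intensity of 1391635_AT was 123, 126, 118, 52.0 and 99.9 in noHS replicates 1 to 5 and 45.4, 64.2, 34.0, 52.9 and 70.2 in HS replicates 1 to 5. The groups overlapped through noHS replicate 4, the only noHS library within the HS range. The difference was -0.85 ± 0.24 (SE; 1.80-fold lower; limma adjusted p = 0.0418), and the call was lost in 7 of 10 leave-one-out fits.

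**Figure D2:**
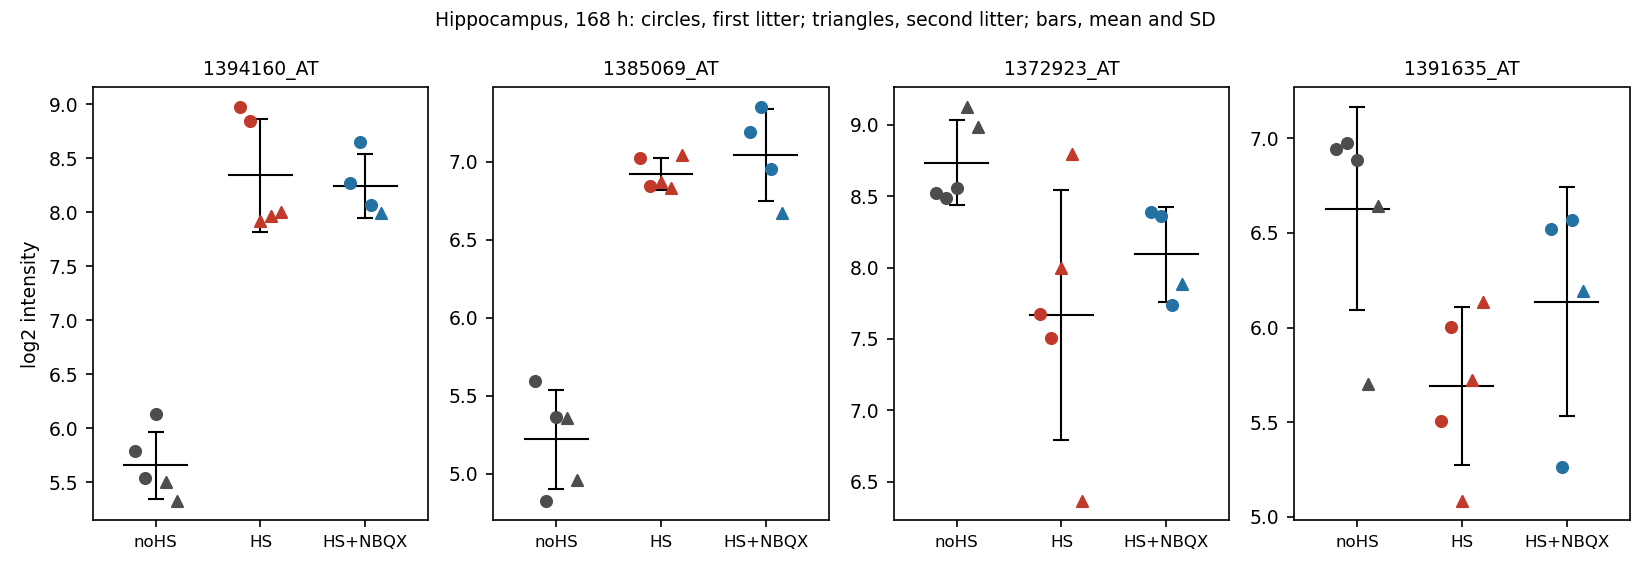
Log2 intensity (y axis) of the called probe sets with the 2 largest rises and 2 largest falls, among those above the 40th percentile of intensity with the same sign in both litters, in each hippocampus library at 168 h by group (x axis). Circles are the first litter, triangles the second, and bars the mean and SD. For 1394160_AT and 1385069_AT no HS or HS+NBQX library reaches down to the noHS libraries, whereas the groups overlap for 1372923_AT and 1391635_AT.

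The litters gave a comparison of 5 pups each, on separate plates. In the first litter alone 130 probe sets were called (0.536%), 115 higher in HS (0.474%) and 15 lower (0.0619%). In the second litter alone 114 were called (0.47%), 105 higher (0.433%) and 9 lower (0.0371%). Both lists held 45 probe sets, all in the same direction, which is 34.6% of the first list and 39.5% of the second. Of the 130 called in the first litter, 122 had the same sign in the second, and of the 114 called in the second, 109 had the same sign in the first. Over all probe sets the sign was shared by 61.0%. Probe sets called higher in the first litter had a median difference of 0.88 there and 0.66 in the second, and those called higher in the second had 0.92 there and 0.65 in the first. Both fits took their spread partly from the libraries of other times, and both plates had the same columns for HS and noHS.

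**Figure D3:**
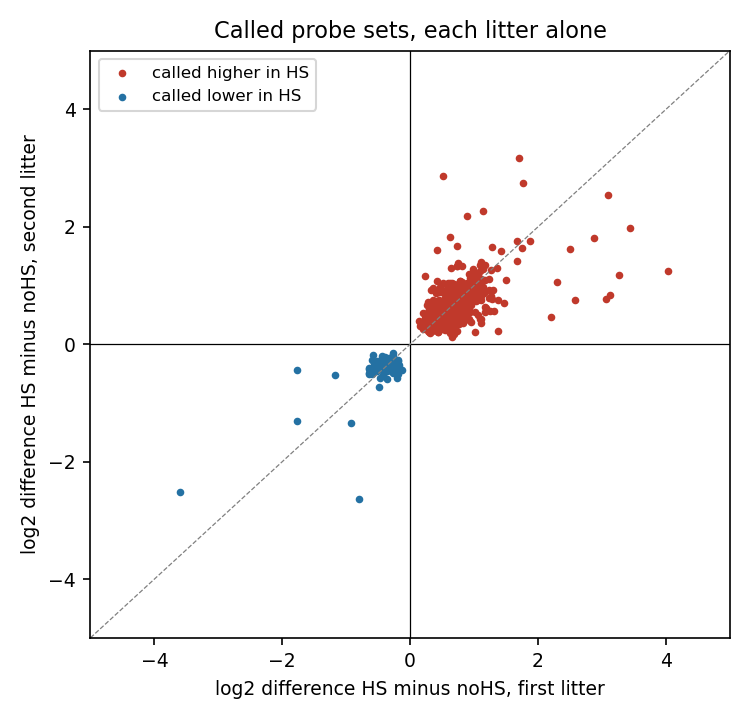
Log2 difference HS minus noHS in the second litter (y axis) against the first (x axis) for the 585 probe sets called higher (red) and the 109 called lower (blue) in the fit of both litters. The dashed line marks equal differences. All 694 have the same sign in both litters, which calling on both litters together favours.

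The response at 1 week was then set against the responses of other pups at 1, 6, 12 and 48 h, to see how much of it was already present. The probe sets that were higher at 168 h were mostly higher at the earlier times as well. Of the 585, the number with a positive difference was 552 at 1 h, 562 at 6 h, 576 at 12 h and 575 at 48 h, where 53.1%, 43.0%, 50.9% and 45.5% of all probe sets were positive. The median difference of the 585 was 0.36, 0.37, 0.61 and 0.49 at these times, compared with 0.60 at 168 h, where they were chosen. They were called higher in 111 cases at 1 h, 152 at 6 h, 425 at 12 h and 357 at 48 h, where 0.895%, 0.845%, 3.62% and 2.7% of all probe sets were called higher. All 4 earlier times gave a positive difference for 533 of the 585, where 16.4% of all probe sets were positive at all 4. Called higher at each of the 4 earlier times were 65 of the 585 and 69 of all 24249 probe sets.

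Of the 109 probe sets lower at 168 h, 83, 91, 95 and 108 had a negative difference at 1, 6, 12 and 48 h. At these times 53.1%, 43.0%, 50.9% and 45.5% of all probe sets had a positive difference. The 109 were called lower in 6, 8, 24 and 29 cases, where 0.26%, 0.148%, 0.577% and 1.02% of all probe sets were called lower. In all, 119 of the 585 rises and 68 of the 109 falls were called in their direction at no earlier time. Over all probe sets 4.85% were called higher and 1.73% lower at 1 or more of the 4 earlier times. No probe set of the 694 was called in the opposite direction at any earlier time. The 5 responses have no pups in common, but their fit shares 1 estimate of the spread, and the layout of HS and noHS columns was alike.

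**Figure D4:**
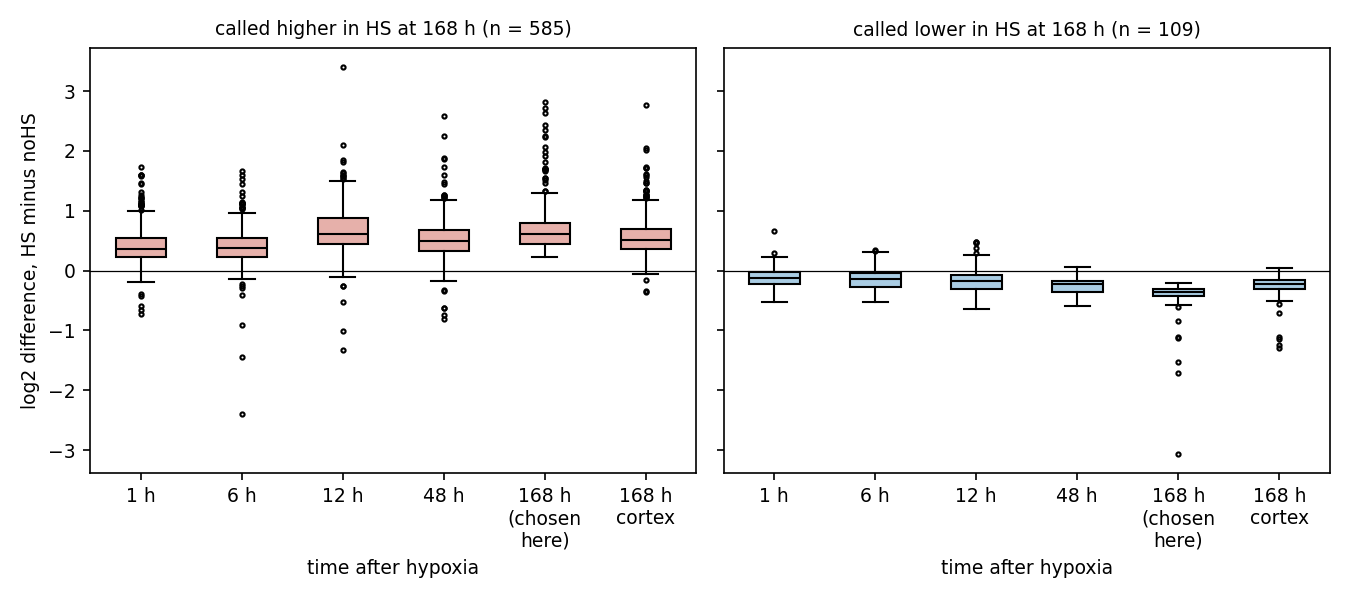
Log2 difference HS minus noHS (y axis) at each time after hypoxia in hippocampus and at 168 h in cortex (x axis) for probe sets called higher (left) and lower (right) in hippocampus at 168 h. Boxes span the quartiles with the median, whiskers reach 1.5 box lengths and points lie beyond. The boxes of the rises stay above 0 at every time with the largest earlier median at 12 h, and the falls lie nearer to 0 at 1, 6 and 12 h.

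Read the other way, most probe sets called at an earlier time had the same direction at 168 h, a time at which 51.4% of all probe sets had a positive difference, 2.41% were called higher and 0.45% were called lower. Of 878 probe sets called higher at 12 h, 850 had a positive difference at 168 h and 425 were called, and their median difference was 0.69 at 12 h and 0.44 at 168 h. Of 655 called higher at 48 h, 649 had a positive difference at 168 h and 357 were called, with medians of 0.57 and 0.44. Of 217 and 205 called higher at 1 and 6 h, 203 in each case were positive at 168 h, and 111 and 152 were called. Of 140 called lower at 12 h and 247 called lower at 48 h, 127 and 229 were negative at 168 h, and 24 and 29 were called. Of 63 and 36 called lower at 1 and 6 h, 52 and 26 were negative at 168 h, and 6 and 8 were called.

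Each library at 168 h was also given 1 value from the 1175 probe sets that were called higher, and never lower, at 1 to 48 h in other pups. This value, the mean log2 difference from the noHS mean at 168 h, was 0.48, 0.45, 0.41, 0.37 and 0.36 in HS replicates 1 to 5, and between -0.05 and 0.06 in the noHS libraries. The 5 HS libraries all lay above the 5 noHS libraries, and the HS libraries of the first litter above those of the second. The value took no account of litter, and in noHS it was 0.06, -0.02 and 0.01 in the first litter and -0.01 and -0.05 in the second. Over all probe sets the same value was 0.05, -0.04, 0.12, 0.09 and 0.12 in HS replicates 1 to 5 and -0.12 to 0.11 in noHS, and there the groups overlapped. The HS pup with the highest value had 10 seizures and the one with the lowest value also had 10. For the 419 probe sets called lower, and never higher, the values were -0.21 to -0.14 in HS and -0.05 to 0.06 in noHS.

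**Figure D5:**
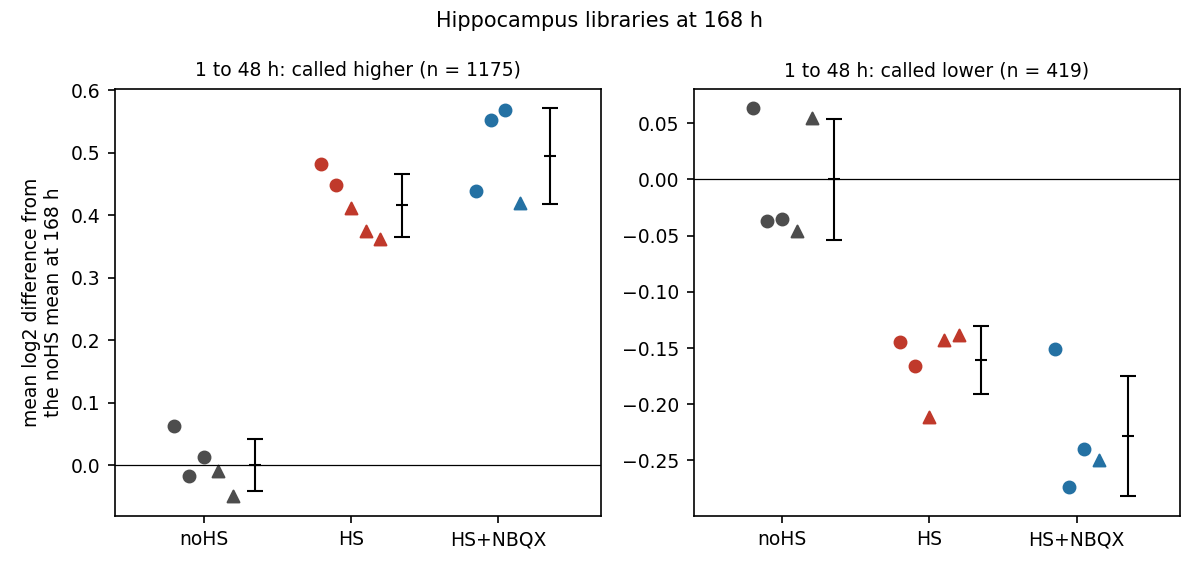
Mean log2 difference from the noHS mean at 168 h (y axis) in each hippocampus library at 168 h by group (x axis), over the 1175 probe sets called higher (left) and the 419 called lower (right) at 1 to 48 h in other pups. Circles are the first litter, triangles the second, bars the mean and SD. The HS and HS+NBQX libraries all lie above noHS on the left and below it on the right.

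The difference between the 1-week response and the mean of the 4 earlier responses was tested directly. No probe set passed (limma, smallest adjusted p = 0.134), and 1060 had an unadjusted p under 0.05. Among probe sets above the 40th percentile of intensity, the 95% interval of this difference had a median half-width of 0.29 on the log2 scale, so differences smaller than this were mostly within the error. Without noHS replicate 2, 1 probe set passed. For 1394160_AT the HS difference was 1.10, 1.66, 2.10 and 2.59 at 1, 6, 12 and 48 h, all called by limma (adjusted p = 0.0065, 1.9e-06, 3.7e-08 and 5.7e-12). Its rise at 168 h exceeded their mean by 0.96 (adjusted p = 0.63 by limma). The differences of 1385069_AT were 1.26, 1.05, 1.2 and 1.59, also called at all 4 times. In contrast, 1372923_AT and 1391635_AT were called at none of the earlier times, and both had a positive difference at 12 h (0.38 and 0.47).

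The same 10 pups gave cortex libraries, which lay on the opposite plate in the same columns. In cortex at 168 h 1177 probe sets were called (4.85%), 852 higher (3.51%) and 325 lower (1.34%). Of the 585 probe sets that rose in hippocampus, 579 had a positive difference in cortex, where 49.1% of all probe sets were positive. In cortex 382 of the 585 were called higher, which is 65.3% of the hippocampal list and 44.8% of the cortical one. Of the 109 that fell, 108 had a negative difference in cortex and 38 were called lower. The median rise of the 585 was 0.60 in hippocampus, where they were chosen, and 0.51 in cortex. When the difference between hippocampus and cortex of each pup was tested, no probe set passed (limma, smallest adjusted p = 0.244), and 939 had an unadjusted p under 0.05. The median half-width of the 95% interval was 0.34 on the log2 scale among the brighter probe sets. In cortex the intensity of 1394160_AT was 25.4 to 35.9 in noHS and 148 to 325 in HS. That of 1385069_AT was 30.8 to 51.3 in noHS and 80.9 to 154 in HS. Neither pair of ranges overlapped, and the cortical differences were 2.77 ± 0.24 and 1.46 ± 0.17 (SE). For 1372923_AT the cortical ranges did not overlap, and its difference was -1.25 ± 0.32 (SE; limma adjusted p = 0.0142). For 1391635_AT the cortical groups overlapped, and its difference was -0.40 ± 0.26 (SE; limma adjusted p = 0.477).

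Few differences between HS pups given NBQX and HS pups given vehicle were called at 1 week. In the direct comparison of HS+NBQX (n = 4) with HS (n = 5), 1 probe set was called (0.00412%) and 1332 had an unadjusted p under 0.05. The called probe set, 1394127_AT, was picked out after its values were seen. Its intensity was 58.6, 56.8, 64.5 and 63.2 in HS+NBQX replicates 1 to 4, and 124, 123, 97.5, 89.5 and 94.7 in HS replicates 1 to 5. All HS+NBQX libraries lay below all HS libraries, and also below all noHS libraries (172, 95.9, 113, 120 and 133). The difference from HS was -0.83 ± 0.13 (SE; limma adjusted p = 0.0011), and HS itself differed from noHS by -0.21 ± 0.11 (SE; adjusted p = 0.412). No probe set was called when HS replicate 2 was left out or when only the 168 h libraries were fitted. The count was 4, 3 and 2 without HS replicate 1, HS+NBQX replicate 1 and HS+NBQX replicate 3. The median half-width of the 95% interval was 0.27 among the brighter probe sets. Only 1 HS+NBQX library came from the second litter, so the comparison rested mainly on the first.

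Set against the noHS libraries, which both comparisons share, HS+NBQX differed at 1674 probe sets (6.9%), 1032 higher (4.26%) and 642 lower (2.65%). With libraries shifted to a common median these were 860 and 871. The 1674 came from the fit of all 3 treatments on 70 libraries. In that fit HS against noHS gave 934 of 24249 probe sets (758 higher, 176 lower), where the fit without HS+NBQX gave 694. The 585 rises of HS had a median difference from noHS of 0.60 in HS and 0.62 in HS+NBQX, and the 109 falls had -0.36 and -0.33. The intensity of 1394160_AT was 309, 402, 269 and 254 in HS+NBQX replicates 1 to 4, within the HS range of 242 to 502. That of 1385069_AT was 146, 163, 124 and 102, where HS ran from 114 to 132. That of 1372923_AT was 335, 329, 213 and 236, and that of 1391635_AT was 91.7, 38.4, 94.9 and 73.2, and neither was called against noHS by limma (adjusted p = 0.273 and 0.28).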

How the data were processed

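The authors processed the array scans with MAS5, left out a pair of samples whose tissues may have been swapped and rescaled each library to a common 75th percentile of present-call intensities; the deposited values are linear intensities of 24249 probe sets. The 97 values at or below 0 were set to the lowest positive value, 0.0526, and log2 was taken without a pseudocount. The comparison of HS with noHS was fitted with limma (version 3.58.1, R 4.3.3; lmFit, eBayes with trend) on 47 hippocampus libraries of 5 times, with litter as a block and 1 HS effect per time, so that the 168 h effect came from its 10 libraries and the spread from all. HS+NBQX was fitted on 70 libraries, and hippocampus minus cortex on the 10 pups' differences. Named probe sets were called, not controls, above the 40th percentile of mean intensity (37.4), of the same sign in both litters, and the 2 largest in each direction. The samples, lists and rules were chosen with earlier results of these data known. Pups, not arrays, were the replicates, and their number limits the precision. Alternatives were other scalings, a pseudocount of 32, a filter on dim probe sets, other blocks and weights, each litter alone and each library left out. Gene lists and the choice of 1 probe set per gene were not run, because no table used here pairs probe sets with genes.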

Additional observations from a re-analysis of the deposited data

Results flagged for a closer look

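In noHS at 168 h the log2 intensity of 1391635_AT was 5.70 in replicate 4 (intensity 52.0), far below the other 4 noHS libraries (99.9 to 126). The gap to its nearest neighbour was 0.738 of the group's range. This was the 1 group past Dixon's critical value among 27 examined; chance alone passes about 1 in 20.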

How the results depend on the processing

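The 694 calls of HS against noHS (585 higher, 109 lower) became 1408 (1038 and 370) with array weights, 130 (115 and 15) in the first litter alone, 114 (105 and 9) in the second, and 233 (219 and 14) with the 168 h libraries alone and no litter block. The methods' t-test gave 154 (134 and 20) on log2 and 155 (136 and 19) on linear intensity after Benjamini-Hochberg adjustment. At a false discovery rate of 0.25 it gave 1199 and 1259. The paper applied that rate to the treatment effect of a 2-way ANOVA over all times, which was not among the alternatives here. The lower calls were 292 with a common median, 168 without dim probe sets, 203 with the 168 h libraries alone and 176 with all 3 treatments in the fit. Leaving out 1 library gave 436 to 671 calls, 371 to 583 higher and 42 to 112 lower. No called probe set changed sign under any alternative. Plate column as a random block had a correlation of -0.008 and gave 726 calls, which bears on spread within columns only. Same-numbered HS and noHS libraries correlated at 0.379, 0.314, -0.299, 0.542 and 0.272 in their deviations; the third pair has different litters, so the numbers were not taken as pairs, and 2 of 5 HS libraries correlated best with their own number. On the 168 h libraries alone, HS against noHS gave 483 calls with the replicate block (414 higher, 69 lower) and 963 with litter as the block. HS+NBQX against HS then gave 0 with either block, and HS+NBQX against noHS gave 1284 with the replicate block (403 lower) and 2006 with litter. Hippocampus against cortex gave 0 with the replicate block.

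Hippocampus against cortex gave 0 calls in every alternative. The 168 h against the earlier responses gave 2 with array weights and 0 to 1 leaving out a library. HS+NBQX against HS gave 0 with the 168 h libraries alone, 2 in the first litter, 33 in the second (1 HS+NBQX library, assumed to vary like the others) and 0 to 4 leaving out a library. HS+NBQX against noHS gave 1005 in the first litter (310 lower) and 146 in the second (73 and 73), and 1147 to 1660 leaving out a library (746 to 1037 higher, 401 to 631 lower; 412 lower without noHS replicate 1 and 401 without HS+NBQX replicate 2). The rises of 1394160_AT and 1385069_AT were called in all 25 alternatives; the falls of 1372923_AT and 1391635_AT lost the call in 16 and 13 of 25 (adjusted p up to 0.447 and 0.787). The mean 3′ to 5′ log2 ratio differed by -0.084, and hexokinase alone differed by -0.365, GAPDH by 0.089 and beta-actin by 0.025. Leaving out a library, differences ran from -0.116 to -0.038 for that ratio, 1.33 to 4.33 for the library median, -7.45 to -0.45 for the upper quartile and 0.147 to 0.253 for the hybridization controls. Dim probe sets limit precision, with a median SE of 0.743 in intensity quintile 1 and 0.0897 in quintile 5. The choice of probe set per gene was not run.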
